A study of Mus musculus with 27 samples.

Results

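The lamin B1 peaks on mouse chromosomes 4 and 12 were 1253 of the 22212 peaks in the 3 deposited lamin B1 lists. They were 166 of 4645 peaks in untreated cells (106 on chromosome 4 and 60 on chromosome 12), 598 of 10484 at 8 h of TGF-β (394 and 204) and 489 of 7083 at 24 h (321 and 168). The 2 chromosomes were chosen because the untreated list held few peaks per annotated gene there, so that density is a description and was not tested. All members of the 3 lists were kept, with no filter on their scores.

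The cells were NMuMG, an epithelial line from the mouse mammary gland, either untreated or given TGF-β for 8 or 24 h at 1 to 5 ng/ml. Lamin B1 ChIP-seq was done on chromatin sheared by low sonication, which favours open chromatin, and each library mixed 2 parallel ChIPs of the same time point. ATAC-seq, which marks accessible DNA, also gave 1 library per time point. No value from these peak lists therefore has an error between replicates, and the intervals given with them (95%, Wilson for shares) cover counting error only. For parental cells there were 2 RNA-seq libraries at each time, and 2 for each time point of cells infected with a control shRNA or with an shRNA against lamin B1 (knockdown, KD). All samples come from 1 cell line, and the study's methods call the paired RNA libraries biological replicates. No source says whether they came from separate cultures, so the p-values measure the spread between these libraries. The peak lists give no reads, and the depth behind them is unknown. Each peak has a score from the peak caller MACS, higher for stronger peaks and on a scale the files do not state, and no list goes below 50.

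Lamin B1 is an intermediate filament protein of the nuclear lamina, the meshwork under the inner nuclear membrane. The lamina is best known for holding large gene-poor and mostly silent domains at the nuclear edge, whereas the low-sonication fraction used here samples lamin B1 in euchromatin, where active genes and their promoters lie. TGF-β drives epithelial cells through the epithelial to mesenchymal transition (EMT), in which they lose their junctions, rebuild the cytoskeleton and become motile. Chromosome 4 carries, besides many housekeeping genes, the clusters of major urinary protein and type I interferon genes, and chromosome 12 carries the immunoglobulin heavy chain locus and a cluster of serpin genes.

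The cells carried the marks of an epithelial line. Of 8 epithelial marker genes, 5 to 7 reached 1 FPKM (fragments scaled to transcript length and library size) in each group of libraries, and their summed level lay between 4333 and 5252 FPKM in parental cells and between 5781 and 7013 FPKM in the shRNA lines. The 5 fibroblast markers summed to 4.98 to 5.87 FPKM in untreated parental cells and to 13.2 to 14.2 FPKM at 24 h. The 5 leukocyte markers reached at most 2.03 FPKM, the 3 endothelial markers at most 1.51 FPKM in parental cells, and the adipocyte markers were at or near 0. In such bulk samples, fewer cells of a type and less RNA per cell cannot be told apart.

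The centres of the strongest promoter peaks were GC rich, and most of the stretches printed from them less so. Over the 300 bases at their centres the peaks below held 73.3 to 78.7% G and C. The printed stretches ranged from 52.7% (Gm9804) to 73.3% (Arid1a). The stretches below lie outside annotated exons, on the mouse build mm9, and are written 5′ to 3′ on the strand of the named gene. Capitals mark a GC box (GGGCGG or CCGCCC), the motif bound by Sp1 and related factors. On each chromosome they come from the highest scoring promoter peak held at every time point, which shows sites present in each list, and from the highest scoring promoter peak seen at 1 later time point alone, which shows a site gained under TGF-β. The fifth stretch, from Arid1a, was added after the values were seen because its peak had the highest score of both chromosomes.
Yrdc: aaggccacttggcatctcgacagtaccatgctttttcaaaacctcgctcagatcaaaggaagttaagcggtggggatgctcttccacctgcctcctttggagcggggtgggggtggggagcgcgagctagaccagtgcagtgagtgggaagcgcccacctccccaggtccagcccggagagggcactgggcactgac
Gm20503: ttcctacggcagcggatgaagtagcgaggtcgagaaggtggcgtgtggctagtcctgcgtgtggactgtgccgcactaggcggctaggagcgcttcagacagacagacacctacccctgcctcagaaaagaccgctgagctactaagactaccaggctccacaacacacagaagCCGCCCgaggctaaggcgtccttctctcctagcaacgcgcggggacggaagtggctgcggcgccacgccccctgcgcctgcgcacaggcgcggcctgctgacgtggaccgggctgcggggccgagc
Arid1a: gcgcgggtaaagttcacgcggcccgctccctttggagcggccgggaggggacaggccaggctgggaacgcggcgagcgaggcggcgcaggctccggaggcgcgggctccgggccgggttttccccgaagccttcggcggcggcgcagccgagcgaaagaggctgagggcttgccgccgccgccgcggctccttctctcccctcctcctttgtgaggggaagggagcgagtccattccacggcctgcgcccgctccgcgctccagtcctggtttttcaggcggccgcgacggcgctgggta
Gm9887: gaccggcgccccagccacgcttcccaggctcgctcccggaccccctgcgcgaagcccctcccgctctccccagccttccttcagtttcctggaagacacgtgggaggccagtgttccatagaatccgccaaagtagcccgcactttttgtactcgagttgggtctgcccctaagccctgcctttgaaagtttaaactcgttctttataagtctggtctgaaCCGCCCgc
Gm9804: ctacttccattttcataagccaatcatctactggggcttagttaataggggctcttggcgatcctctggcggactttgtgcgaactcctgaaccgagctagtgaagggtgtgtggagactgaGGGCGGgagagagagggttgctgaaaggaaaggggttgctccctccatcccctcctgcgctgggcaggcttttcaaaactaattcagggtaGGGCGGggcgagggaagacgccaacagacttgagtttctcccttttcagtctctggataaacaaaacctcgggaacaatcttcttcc

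The Yrdc stretch is chr4:124527279-124527475 on the plus strand, 197 bases in an intron of 1110065P20Rik, the gene that shares this promoter on the other strand, and it ends 448 bases before the transcription start site (TSS) of Yrdc. Yrdc encodes an enzyme that makes a modified base of tRNA. It held no GC box, but the 300 bases at the centre of the whole peak had 76.3% G and C and 3 GC boxes. The Gm20503 stretch is chr4:59015744-59016043 on the plus strand, 300 bases inside the gene Dnajc25, with 1 GC box and 28 CpG dinucleotides. The Arid1a stretch is chr4:133310251-133310550 on the minus strand, in an intron of Arid1a, with 73.3% G and C, 41 CpG dinucleotides and no GC box. The Gm9887 stretch is chr12:70472593-70472821 on the minus strand, 229 bases outside any annotated gene, in the peak that covers the starts of Gm9887 and Arf6, and it held 1 GC box. The Gm9804 stretch is chr12:50501964-50502263 on the plus strand, just upstream of the TSS of Gm9804 and inside 3110039M20Rik, and it held 2 GC boxes.

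Lamin B1 peaks were sparse on both chromosomes in untreated cells, and their number grew more than on most other autosomes under TGF-β. Per 100 genes, chromosome 4 had 3.70 untreated peaks, 13.8 at 8 h and 11.2 at 24 h, and chromosome 12 had 4.53, 15.4 and 12.7. The other 17 autosomes had a median of 12.7, 29.9 and 21.6 peaks per 100 genes. Chromosomes 14 (1.97) and 18 (3.42) were lower than both in untreated cells, and chromosome 13, with 9.24, was the next above them. Chromosome 19 was the highest in untreated cells with 55.1 peaks per 100 genes. Chromosomes 4 and 12 ranked 3 and 4 from the lowest of the 19 autosomes in untreated cells, and 2 and 3 at both later times, when chromosome 14 alone was lower.

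**Figure D1:**
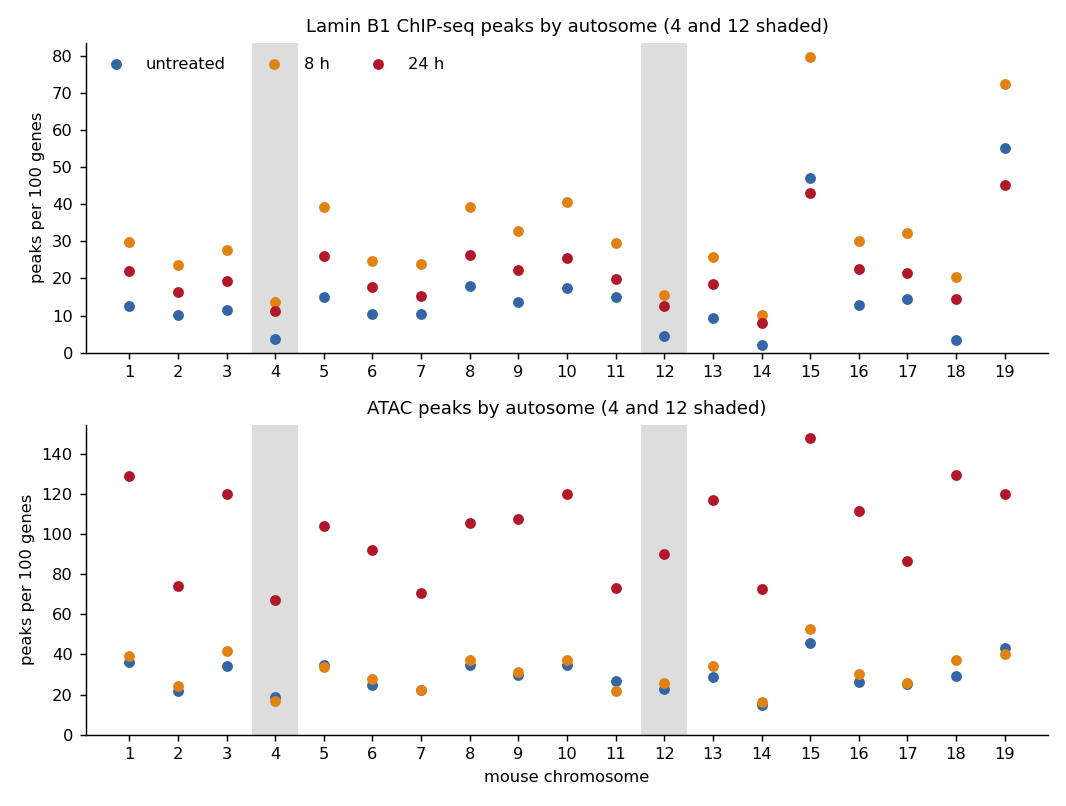
Peaks per 100 annotated genes on each autosome, for lamin B1 (top) and ATAC (bottom), in untreated cells and at 8 and 24 h of TGF-β, with 1 library per point. In untreated cells chromosomes 4 and 12 had 3.70 and 4.53 lamin B1 peaks per 100 genes, at ranks 3 and 4 from the lowest, and 18.7 and 22.8 ATAC peaks, at ranks 2 and 5.

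Set against the other autosomes, chromosomes 4 and 12 together had 0.272 times as many lamin B1 peaks per gene in untreated cells (95% interval 0.233 to 0.317), 0.451 times at 8 h (0.415 to 0.490) and 0.554 times at 24 h (0.505 to 0.607). The untreated ratio follows from the choice of the chromosomes, so the later ratios are set beside it as a description. With lists of equal length, made of the highest scoring peaks of each time point, the ratios were 0.272, 0.354 and 0.454, and their neighbouring intervals overlapped (0.233 to 0.317, 0.308 to 0.406 and 0.402 to 0.514). The same chromosomes held 12.1% of the autosomal genes, 9.61% of the protein-coding genes and 9.99% of the genes expressed at 1 FPKM or more. Their share of the autosomal lamin B1 list was 3.60% before treatment (interval 3.10 to 4.18%), 5.84% after 8 h (5.40 to 6.31%) and 7.07% after 24 h (6.49 to 7.70%), below each of these shares at every time.

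Between untreated cells and 8 h the number of lamin B1 peaks grew 3.72-fold on chromosome 4 and 3.40-fold on chromosome 12, against 2.17-fold on the other autosomes together. At 24 h the numbers were 3.03 and 2.80 times the untreated ones, against 1.45 times elsewhere. Chromosomes 18 (5.96-fold at 8 h) and 14 (5.13-fold) grew more, and chromosomes 4 and 12 came next, at ranks 3 and 4. Chromosome 19, densest in untreated cells, grew 1.31-fold at 8 h and fell to 0.822 of its untreated number at 24 h. Growth is a ratio to the untreated count that chose the 2 chromosomes, so a large value partly follows from that choice.

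ATAC peaks were also fewer per gene there, by less. On chromosomes 4 and 12 the untreated list held 838 ATAC peaks, that of 8 h 818 and that of 24 h 3110. Relative to the other autosomes this was 0.696 times as many per gene in untreated cells (0.649 to 0.747), 0.640 times at 8 h (0.596 to 0.688) and 0.759 times at 24 h (0.731 to 0.787). Per protein-coding gene the ATAC ratios were 0.900, 0.827 and 0.981, whereas the lamin B1 ratios were 0.351, 0.583 and 0.715. ATAC peaks on these chromosomes grew 0.976-fold to 8 h and 3.71-fold to 24 h, close to the 1.06-fold and 3.41-fold of the other autosomes. The step in lamin B1 peaks at 8 h thus came without a step in ATAC peaks.

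Scores and widths were below those of the other autosomes as a set. The median score on chromosomes 4 and 12 was 62.4 before treatment, 73.2 after 8 h and 72.5 after 24 h, against 70.1, 79.9 and 84.4 on the other autosomes. A score of 100 or more was reached by 18 of 166 peaks in untreated cells (10.8%, interval 6.97 to 16.5%), 144 of 598 at 8 h (24.1%, 20.8 to 27.7%) and 122 of 489 at 24 h (24.9%, 21.3 to 29.0%). The other autosomes gave 19.6%, 33.4% and 37.4%. Chromosomes 14 and 18 had medians as low at the first 2 times, with 59.1 and 62.2 in untreated cells and 70.2 and 71.3 at 8 h. At 24 h they had 78.5 and 77.35, above the 71.3 and 76.45 of chromosomes 4 and 12, which ranked 1 and 2 from the lowest. The median width fell from 1110 bp in untreated cells to 930 bp at 8 h and 855 bp at 24 h, against 1234, 997 and 913 bp elsewhere. The part of the score limit of the lists in these peak numbers was not tested.

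Most lamin B1 peaks on chromosomes 4 and 12 lay at gene starts. Within 500 bp of a TSS lay 126 of 166 untreated peaks (75.9%, interval 68.9 to 81.8%), 418 of 598 peaks at 8 h (69.9%, 66.1 to 73.4%) and 356 of 489 at 24 h (72.8%). The other autosomes gave 65.9%, 59.0% and 69.6%. Exons away from a TSS held 9.04%, 13.4% and 11.9% of the members, against 17.6%, 21.0% and 12.9% elsewhere. Outside genes and their upstream regions lay 4.82%, 7.19% and 5.11%. ATAC peaks of the same chromosomes were less bound to gene starts at 24 h, when 30.4% of them lay within 500 bp of a TSS.

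Peaks lay unevenly along both chromosomes and rarely stood close together in untreated cells. Windows of 10 Mb held from 0 untreated peaks (chr4:20000001-30000000) to 21 (chr4:130000001-140000000). A shorter list leaves more single peaks, and groups were not compared between lists of equal length. Joined over gaps of up to 100 kb, the untreated peaks formed 138 groups, of which 114 (82.6%) were a single peak, and at most 3 peaks stood in 1 group. At 8 h there were 360 groups and 66.1% were single, and at 24 h there were 322 and 71.4% were single. The largest group had 19 peaks at 8 h, over chr4:151236303-151861879, and its 20 protein-coding genes run from Dnajc11 to Kcnab2 through Espn, which encodes an actin bundling protein, Chd5, a chromatin remodeller, and Hes2 and Hes3, relatives of the Notch target Hes1. At 24 h the same stretch held 12 peaks over chr4:151307485-151672293. A second group at 8 h, with 11 peaks over chr4:133035869-133523429, included Sfn, an epithelial 14-3-3 protein, Arid1a and Rps6ka1. On chromosome 12 the largest group had 6 peaks at 24 h, over chr12:114046954-114238862, and covered Jag2, a Notch ligand, and Brf1, a factor of RNA polymerase III.

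Overlapping peaks of the 3 lists merged into 843 regions, 563 on chromosome 4 and 280 on chromosome 12. Of these, 81 had a peak at every time (9.61%, interval 7.80 to 11.8%), against 19.2% of the 12154 regions on other autosomes. A peak at 8 h alone was found in 299 regions (35.5%), at 24 h alone in 190 (22.5%), and at both 8 and 24 h in 189 (22.4%). On other autosomes these shares were 33.0%, 11.8% and 18.98%. Regions with a peak in untreated cells alone numbered 33 (3.91%, against 7.93% elsewhere). With lists of equal length the share of regions held at every time was 13.3%. A region held at every time needs an untreated peak, and the chromosomes were chosen for having few of these, so the low share and the high share of later regions follow in large part from that choice.

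**Figure D2:**
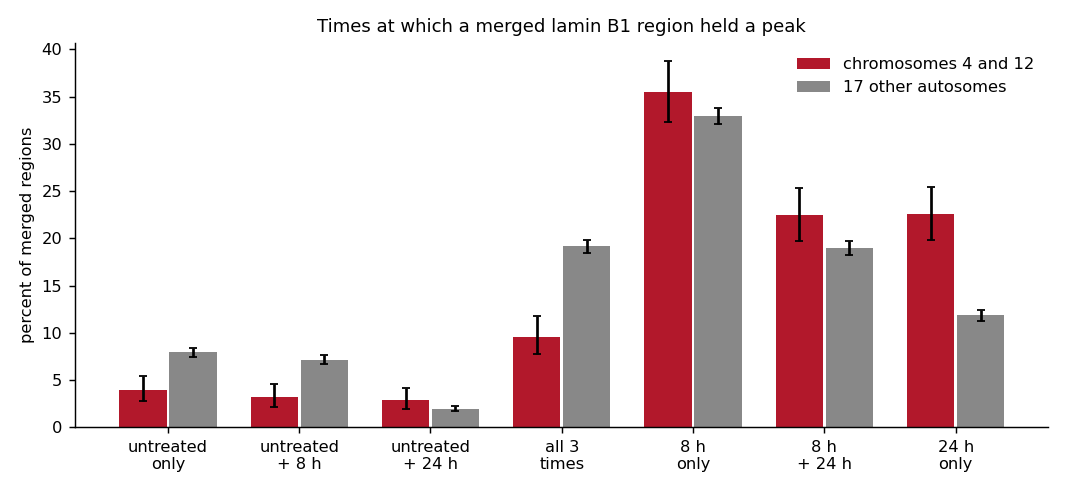
Percent of merged lamin B1 regions by the time points at which they had a peak, for chromosomes 4 and 12 (843 regions) and for the other autosomes (12154 regions), with 95% Wilson intervals that cover counting error only. Regions held at every time make up 9.61% on chromosomes 4 and 12 and 19.2% elsewhere, and regions seen at 24 h alone make up 22.5% and 11.8%. The choice of chromosomes with few untreated peaks bears on both.

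Seen from the untreated list, most sites were found again at each later time taken singly, and 82 of 166 (49.4%) at both, against 2349 of 4444 on the other autosomes. Of the 166 untreated peaks, 109 (65.7%, interval 58.2 to 72.5%) overlapped a peak at 8 h and 106 (63.9%, 56.3 to 70.8%) a peak at 24 h, against 72.8% and 58.4% on the other autosomes. In the other direction, 18.2% of the peaks seen at 8 h and 22.3% of those seen at 24 h were already in the untreated list, against 34.1% and 40.9%. On chromosome 12, 76.7% of the untreated peaks were found at 24 h, and on chromosome 4 56.6% were. Peaks found at more times had higher scores. The 33 untreated peaks found at no other time had a median score of 55.6, the 51 found at 1 other time 61.7, and the 82 found at both 69.5. At 8 h the medians were 63.8, 82.9 and 125.2 in the same order.

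The overlap with open chromatin depended on the time point. Of the lamin B1 peaks on chromosomes 4 and 12, 60.8% overlapped an ATAC peak in untreated cells (interval 53.2 to 67.9%), 31.8% did at 8 h (28.2 to 35.6%) and 68.3% at 24 h (64.0 to 72.3%). On the other autosomes the shares were 49.1%, 29.9% and 63.9%. Near a TSS the members gave 68.3%, 40.4% and 81.2%, against 66.0%, 45.2% and 79.0% on the other autosomes. Away from a TSS they gave 37.5%, 11.7% and 33.8%, against 16.5%, 7.85% and 29.45%. The ATAC list of 24 h was the longest, and 63.7% of the 8 h lamin B1 peaks overlapped a peak of that list. With the same number of ATAC peaks at each time point, the highest scoring ones, the overlap at 24 h was 43.4%. Turned around, lamin B1 lay over 15.6% of the untreated ATAC peaks at gene starts on these chromosomes, over 40.2% at 8 h and over 30.9% at 24 h, against 36.3%, 58.2% and 42.8% elsewhere. Accessible starts without a lamin B1 peak were thus the common case on chromosomes 4 and 12 at every time. The untreated share of 15.6% follows in large part from the choice of chromosomes with few untreated lamin B1 peaks.

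Expressed genes on these chromosomes were less often lamin B1 + than expressed genes elsewhere. In untreated cells this follows in large part from the choice of chromosomes with few peaks. A gene was called lamin B1 + when a peak lay between 2500 bp upstream of its TSS and its 3′ end. Among genes at 1 FPKM or more, 157 of 1040 were lamin B1 + in untreated cells (15.1%), 415 of 1030 at 8 h (40.3%) and 355 of 1033 at 24 h (34.4%). On the other autosomes the shares were 36.9%, 59.5% and 46.3%. Of the same genes, 54.9%, 41.3% and 86.2% had an ATAC peak at the TSS, against 58.9%, 48.5% and 85.7% elsewhere. The share was higher in classes of higher expression at the first 2 time points. In untreated cells it was 1.28% of genes under 1 FPKM, 11.8% from 1 to 10 FPKM, 17.6% from 10 to 100 FPKM and 22.4% above 100 FPKM, and at 8 h it was 13.9%, 37.5%, 41.2% and 58.2%. At 24 h the class above 100 FPKM (33.3%) was no higher than that from 10 to 100 FPKM (37.4%).

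The 4 chromosomes with the lowest share of lamin B1 + genes also had the 4 lowest medians of expression in untreated cells. The median expressed gene had 11.2 FPKM on chromosome 4 and 9.98 FPKM on chromosome 12 in untreated cells, at ranks 4 and 1 from the lowest, against a median of 14.2 FPKM over the other autosomes. Chromosomes 14 and 18, with 7.74% and 9.30% of their expressed genes lamin B1 +, had medians of 10.7 and 10.6 FPKM. Chromosomes 15 and 19, with 63.8% and 68.3%, had 20.9 and 22.03 FPKM. Between these ends the order was loose, since chromosome 3 had 28.9% with 15.7 FPKM and chromosome 16 had 38.7% with 12.2 FPKM. At 24 h the medians on chromosomes 4 and 12 were 11.3 and 10.4 FPKM, and 34.7% and 33.7% of their expressed genes were lamin B1 +. The part of the expression level in these peak numbers was not tested.

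**Figure D3:**
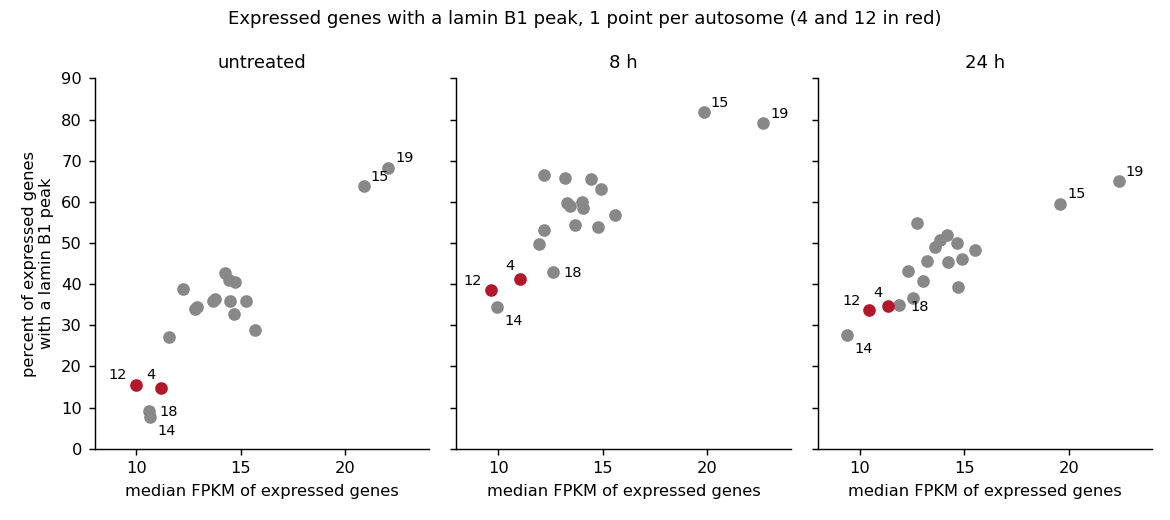
Percent of expressed genes (1 FPKM or more) that were lamin B1 + against the median FPKM of those genes, with 1 point per autosome and 1 panel per time point. Chromosomes 4 and 12 lie with chromosomes 14 and 18 at the low end of both axes in untreated cells, at 14.8% and 15.6%, and chromosomes 15 and 19 lie at the high end. The points share libraries and are given as a description. The choice of chromosomes 4 and 12 bears on their untreated shares.

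Over all 3 lists, 882 of the 4187 annotated genes of chromosomes 4 and 12 were lamin B1 +, and 750 of these were among the 2059 protein-coding genes. Of the 2055 protein-coding genes with a value in the RNA table, 94 were positive at every time, with an untreated median of 11.7 FPKM. The 231 positive at 8 h alone had a median of 3.83 FPKM, the 135 positive at 24 h alone 5.56 FPKM, and the 1312 never positive 0.0750 FPKM. The levels of the 8 h group hardly moved with time, with medians of 3.83, 3.92 and 4.18 FPKM. Genes positive at a later time alone thus had lower medians than those positive from the start.

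The letters under the members set them apart from ATAC peaks. In the 300 bases around each peak's centre, the median share of G and C was 70.7% before treatment, 71.0% after 8 h and 72.7% after 24 h. The other autosomes had 67.3%, 67.3% and 70.7%, the ATAC peaks of chromosomes 4 and 12 had 64.0%, 58.7% and 50.7%, and the starts of protein-coding genes there 60.7%. Regions held at every time were richest, at 74.0%, and those seen at 8 h alone had 67.7%. The ratio of observed to expected CpG was 0.875, 0.874 and 0.923 in the order of time, against 0.796, 0.646 and 0.275 in ATAC peaks. Values as high as those of the lamin B1 peaks are known from CpG islands, the mostly unmethylated GC-rich stretches at many gene starts. Lamin B1 and ATAC peaks also differed in their share at gene starts, and peaks at starts were not compared alone.

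Motifs were searched in these windows on both strands. The GC box GGGCGG was found in 65.1% of the untreated members, 64.4% at 8 h and 71.2% at 24 h, and in 51.1% of windows at protein-coding starts of the same chromosomes. In the ATAC peaks its share fell from 60.5% to 49.1% and 27.4%. The AP-1 site TGAGTCA, bound by Fos and Jun proteins, ran the other way. It was found in 13.4%, 22.4% and 34.2% of the ATAC peaks of these chromosomes, but in 4 of 166, 9 of 598 and 8 of 489 lamin B1 peaks (2.41%, 1.51% and 1.64%), near the 3.01% of gene starts. Open sites at 24 h thus often held AP-1 letters, and lamin B1 peaks rarely did. At 24 h 72.8% of the lamin B1 members but 30.4% of the ATAC peaks lay within 500 bp of a TSS. Peaks at gene starts were not compared alone, so place and assay cannot be told apart here. The other autosomes gave lamin B1 shares of 2.68%, 2.28% and 1.67% for the AP-1 site and 55.2%, 56.7% and 66.2% for the GC box.

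The remaining motifs were those of general promoters and of EMT factors. The letters CCAAT, bound by NF-Y, were in 20.5%, 14.05% and 14.9% of the members against 34.8% of gene starts. The ETS letters CCGGAAG were in 10.2%, 8.70% and 7.36% against 11.8%. The E-box CAGGTG, bound by the EMT factors Snail and Zeb, was in 25.9%, 23.9% and 22.1% against 20.5% of gene starts. The palindromic Smad box GTCTAGAC was in 0 of 166, 1 of 598 and 0 of 489 windows, which leaves upper 95% limits of 2.26%, 0.941% and 0.780%, against 0.194% of gene starts. GC content differs between these sets and bears on any count of short motifs, so the shares describe letters and not binding.

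**Figure D4:**
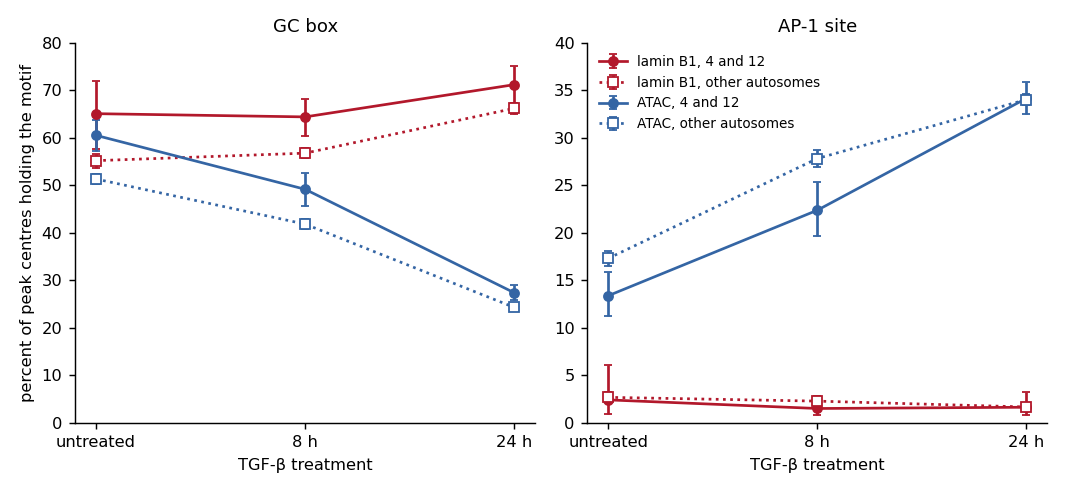
Percent of 300-base peak centres that held a GC box or an AP-1 site, for lamin B1 and ATAC peaks in untreated cells and at 8 and 24 h, with chromosomes 4 and 12 as solid lines and the other autosomes as dotted lines. Bars are 95% Wilson intervals and cover counting error only. AP-1 letters rose from 13.4% to 34.2% of the ATAC peaks of chromosomes 4 and 12 and stayed between 1.51% and 2.41% of the lamin B1 peaks. Lamin B1 and ATAC peaks differ in their share at gene starts.

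The strongest member of each list lay inside Arid1a, which encodes the DNA-binding subunit of the BAF chromatin remodelling complex. Its score was 297.6 in untreated cells (chr4:133310035-133310991), 396.8 at 8 h (chr4:133309958-133310998) and 553.6 at 24 h (chr4:133310054-133310748). The peak lay in an intron, 1686 to 1936 bp from the TSS, and an ATAC peak of modest score overlapped it at each time (57.0, 59.6 and 77.2). The strongest peaks on chromosome 12 changed from list to list. They were at the start of Rhob, a small GTPase of the actin cytoskeleton, in untreated cells (140.3), at the start shared by Zbtb1 and Zbtb25, both zinc finger factors, at 8 h (248.8), and over the start of 3110039M20Rik at 24 h (338.7). Each was far below the highest score elsewhere, which was 2215 in untreated cells and 3100 at both later times.

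The highest promoter scores included genes that most cells use and genes whose RNA was listed at 0. On chromosome 4 they were those of Eps15, an adaptor of endocytosis (218.5 in untreated cells, 246.6 at 24 h), of Yrdc and 1110065P20Rik (181.4, then 253.2 at 8 h and 283 at 24 h), and of Epb4.1, the membrane skeleton protein 4.1 (149.7 in untreated cells). Ssbp3, a cofactor of LIM-domain transcription factors (264.5), and E130114P18Rik (231.8, RNA listed at 0) led at 8 h, and Slc35d1, a nucleotide sugar transporter (176.8), followed Yrdc and Eps15 at 24 h. On chromosome 12, after Rhob, came the start shared by Arf6, a GTPase of membrane traffic, and Gm9887 (126.5 in untreated cells, 251.1 at 24 h). Eif5, a translation initiation factor (236.6), and Cdc42bpb, a kinase that acts on the cytoskeleton (229.1), followed Zbtb1 at 8 h. At 24 h Insm2, a zinc finger factor of neuroendocrine cells, had a score of 287 with an RNA level listed at 0 and no ATAC peak over it. The start of 3110039M20Rik had an ATAC peak of score 428.9 and an RNA level that went from 12.4 FPKM in untreated cells to 6.17 FPKM at 24 h.

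Regulators of TGF-β signalling and EMT were a first group, 14 of 20 of them lamin B1 + at some time (5 in untreated cells, 11 at 8 h, 7 at 24 h, 2 at every time). Among protein-coding genes of these chromosomes 36.4% were positive at some time, and the genes of the list were picked by name, so its share stands as a description. At 8 h alone peaks covered Id3, an inhibitor of bHLH factors (score 147.7), Klf4, an epithelial zinc finger factor (175.2), Jun, a subunit of AP-1 (72.5), and Zfp36l1, an RNA decay factor (58.6). Ski, a repressor of Smad proteins, had peaks at 8 h (91.5) and 24 h (80.9). Jdp2, an AP-1 repressor, was positive at each time with a rising score (96.8, 158.2 and 178.4). Tgfbr1, the type I TGF-β receptor, had a peak in untreated cells (57.8) and at 24 h (104.5). Id2, Twist1, Ltbp2, Tgfb3, Runx3 and Grhl3 had none.

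Genes of adhesion, cytoskeleton and matrix were positive in 11 of 20 cases, 3 of them before treatment, 8 at 8 h and 7 at 24 h. Of all 2059 protein-coding genes of these chromosomes, 36.4% were positive at some time. The counts were 169 before treatment, 559 at 8 h and 468 at 24 h. Arf6 (126.5, 131.6 and 251.1) and Epha2, an ephrin receptor (51.9, 70.9 and 101.7), were positive at each time. Actn1, the actin crosslinker alpha-actinin (77.2 at 8 h and 88.4 at 24 h), and Sdc3, the cell-surface proteoglycan syndecan-3 (59.7 and 84.5), gained a peak. Tnc, which encodes the matrix protein tenascin-C, and Rock2, a kinase that acts on the actin cytoskeleton, had no peak in any list. Of the chromatin, splicing and transcription machinery, 12 of 20 genes were positive, 4 of them before treatment, 10 at 8 h and 9 at 24 h. Arid1a, Kdm1a, the histone demethylase LSD1 (62.5, 108.4 and 138.3), and Brf1 (60.7, 127.0 and 72.6) were positive at each time.

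Lineage transcription factors of other tissues were taken as a contrast, since most are silent in these cells. None of the 20 was positive at every time, and 1 was positive before treatment, 9 at 8 h and 10 at 24 h, 13 in all. This share of 65% stands beside 55 to 70% in the other lists of 20 genes. Of all protein-coding genes of these chromosomes it was 36.4%. Foxa1, a pioneer factor also known from mammary luminal cells, had a peak of score 212.8 at 8 h and 214.6 at 24 h. Pou3f1, a POU factor (118.4 and 137.9), Nkx2-1, the lung and thyroid factor (93.0 and 82.3), and Bcl11b, a T cell factor (90.3 and 63.9), were positive at both later times. Sox11 (107.8) and Pax5, a B cell factor (67.2), were positive at 8 h alone, and Foxe3 (68.1), Pax7, of muscle stem cells (64.4), and Prdm16, of brown fat (85.5), at 24 h alone. Only 4 of the 20 had an ATAC peak at their TSS at 24 h, 1 at 8 h and 0 in untreated cells. Several lay at or under 0.137 FPKM in untreated cells, Nkx2-1, Bcl11b, Pax5, Foxd3, Dmrta2, Foxe3, Pax7 and Prdm16 among them.

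Tissue-restricted gene clusters held no member. Of 166 genes in the Mup, interferon, odorant receptor, vomeronasal receptor, Igh, Serpina and Cyp4 families on the 2 chromosomes, 0 were lamin B1 + in any list and 1, of the Cyp4 family, had an ATAC peak at its TSS. A count of 0 of 166 stands beside 36.4% of protein-coding and 21.1% of all annotated genes there. The lists hold only peaks above a score limit, so weaker binding at these clusters was not detectable.

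RNA changes under TGF-β were then compared for the lamin B1 + genes of both chromosomes. Of 743 in the parental table, 560 passed the filter of 1 FPKM in at least 2 libraries and were tested. At 8 h, 146 were higher than in untreated cells (26.1%, beside 22.4% of all 11309 tested genes) and 165 lower (29.5%, beside 32.1%). At 24 h, 187 were higher (33.4%, beside 33.4% of all) and 202 lower (36.1%, beside 37.1%). After quantile normalization the splits were 166 higher and 136 lower at 8 h and 204 and 187 at 24 h. The median log2 difference of the members was -0.04 at 8 h and -0.03 at 24 h, beside -0.05 and -0.02 over all genes. At least 2-fold changes among the called genes numbered 23 at 8 h and 45 at 24 h of the 560 members. They numbered 486 and 1333 of all 11309 tested genes, and 22 and 65 of 499 genes of these chromosomes without a peak. The members were thus called about as often as all tested genes, in both directions, while 2-fold changes at 24 h were less frequent among them.

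Sdc3 rose most at 8 h among the members named by the fixed rule, with 85.3 and 66.0 FPKM against 13.5 and 14.9 FPKM in untreated cells. Its log2 difference was 2.33 ± 0.11 (SE, adjusted p = 3.32e-05 by limma with Benjamini-Hochberg adjustment), and at 24 h, with 144.3 and 133.3 FPKM, it was 3.20 ± 0.11. All treated libraries stood above both untreated ones, which the naming rule required. Whrn, a scaffold protein of sensory hair cells, went from 2.95 and 3.23 FPKM to 21.0 and 16.6 at 8 h and 32.8 and 30.9 at 24 h (log2 difference 2.27 and 3.01). Spsb1, an adaptor of a ubiquitin ligase, went from 3.39 and 3.18 FPKM to 17.9 and 16.0 at 8 h (2.06). Tmeff1, a transmembrane protein, was at 0.265 and 0.211 FPKM in untreated cells and at 11.6 and 10.9 FPKM at 24 h (3.31). Sdc3 kept its lamin B1 peak at 24 h, while Whrn (111.3), Spsb1 (58.3) and Tmeff1 (79.1) had theirs at 8 h alone.

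Dio3 and Dio3os had the largest falls among the lamin B1 + genes named by the rule. Dio3, the enzyme that inactivates thyroid hormone, stood at 8.06 and 7.98 FPKM in untreated cells. It had fallen to 0.0959 and 0.453 after 8 h, and to 0.0307 and 0.0868 after 24 h (log2 difference -2.84 and -3.09). Dio3os, the transcript on the opposite strand, went from 12.7 and 10.9 FPKM to 0.238 and 0.460 at 8 h and 0.0957 and 0.162 at 24 h (-3.25 and -3.50). No treated library of either gene reached an untreated one, which the naming rule required. The study shows strand-specific RNA profiles, but no source used here says whether the FPKM counting used strand, so reads of the pair may not be separated. The pair shared a lamin B1 peak whose score was 66.2, 89.2 and 150.8 in the order of time, so the score stood highest where the RNA was lowest. Rps6ka1, a kinase of the MAPK pathway, fell from 29.4 and 29.1 FPKM to 8.10 and 8.44 FPKM at 24 h (-1.71), when it gained a peak (61.0).

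Id3 fell from 86.9 and 73.2 FPKM to 22.6 and 24.6 FPKM at 8 h (-1.71 ± 0.08, adjusted p = 3.32e-05 by limma). At 24 h it was at 71.4 and 75.4 FPKM, which did not differ from untreated cells (-0.12, adjusted p = 0.240 by limma). Its lamin B1 peak was likewise present at 8 h and absent at 24 h. Among the 17 tested regulators 8 rose and 4 fell at 8 h (beside 22.4% and 32.1% of all genes), and 9 rose and 4 fell at 24 h (beside 33.4% and 37.1%), with median log2 differences of 0.12 and 0.26. Jun rose by 1.12 and 1.49, Ski by 1.16 and 1.07, and Cdkn2b, an inhibitor of the cell cycle that TGF-β is known to induce, by 0.73 and 1.20. Ltbp2, a binder of matrix fibrils with no peak, rose by 1.29 and 2.20, and Id2, also with no peak, had -2.84 and -2.74. Klf4 had -0.80 and -0.69.

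Of the 16 tested adhesion, cytoskeleton and matrix genes, 9 rose and 4 fell at 8 h, and 10 rose and 3 fell at 24 h (median log2 0.40 and 0.57), beside 22.4% and 32.1% of all genes at 8 h and 33.4% and 37.1% at 24 h. Besides Sdc3, Rhob rose from 17.2 and 16.4 FPKM to 59.3 and 50.2 at 8 h and 59.2 and 54.8 at 24 h, and Actn1 rose by 0.79 and 1.11. Tnc rose without a lamin B1 peak (0.25 at 8 h and 1.22 at 24 h). Epha2 and Arf6, positive at every time, fell, with -0.62 and -0.31 at 8 h and -1.12 and -0.74 at 24 h. Of 19 machinery genes 4 rose and 6 fell at 8 h and 5 rose and 8 fell at 24 h, or 6 and 5 after quantile normalization. Without library 1 of the untreated cells 1 rose and 4 fell at 8 h. Hmgn2, a nucleosome-binding protein, had -0.93 and Kdm1a 0.64 at 24 h. Of the 4 lineage factors expressed enough to be tested 1 rose and 3 fell at 8 h, among them Pax9 (-1.10), and at 24 h 1 rose and 2 fell.

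**Figure D5:**
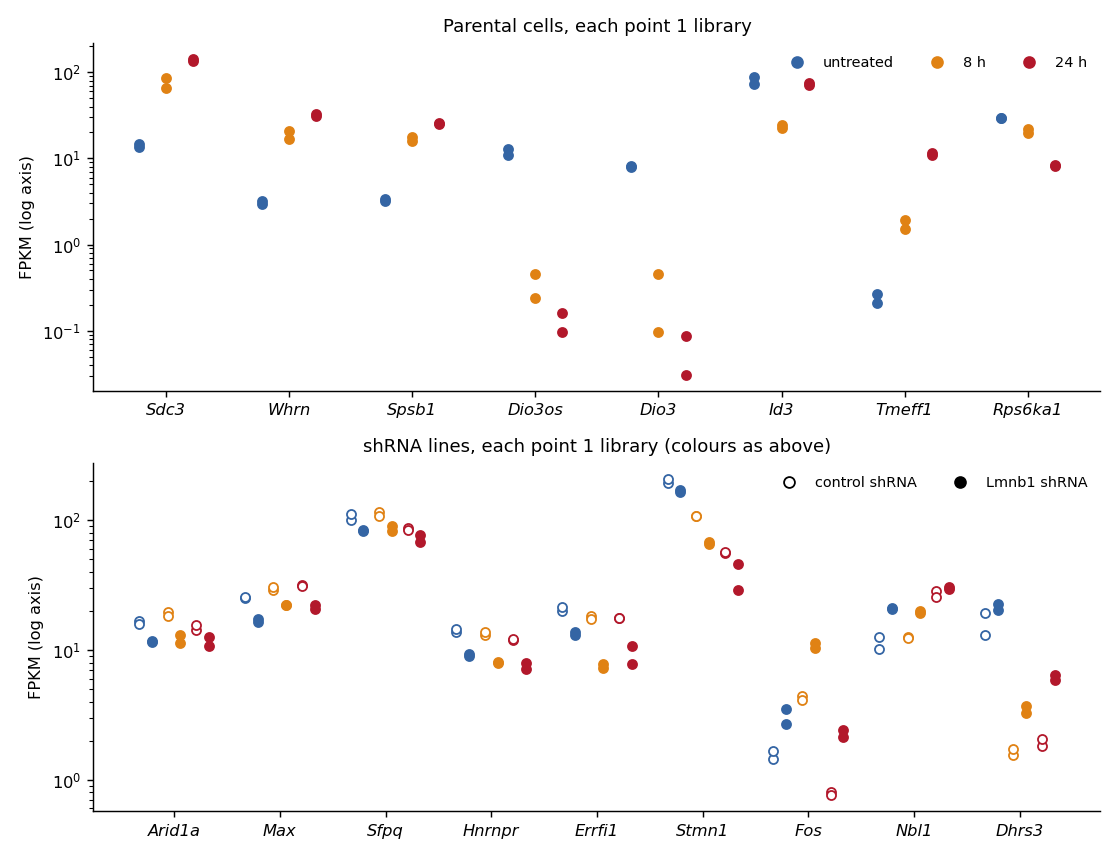
FPKM in each library (log axis) of lamin B1 + genes on chromosomes 4 and 12, with parental cells (top) in untreated cells and at 8 and 24 h of TGF-β, and control and KD lines (bottom) at the same times. Each point is 1 library. Sdc3 goes from 13.5 and 14.9 FPKM to 144.3 and 133.3 at 24 h, and the KD libraries of Arid1a lie below the control libraries at each time.

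In the shRNA lines Lmnb1 itself was lower in every KD library than in every control library of its time point. It stood at 9.01 to 9.27 FPKM against 29.2 to 36.5 in untreated lines, 7.79 to 8.14 against 32.1 to 32.8 at 8 h, and 4.37 to 7.52 against 17.9 to 18.4 at 24 h. Parental cells showed the same fall with TGF-β, from 36.3 and 36.9 FPKM to 17.6 and 19.5 FPKM at 24 h. ChIP of the KD line was not analysed here, so whether peaks were lost there was not tested.

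Of 747 lamin B1 + genes of the 2 chromosomes in the shRNA table, 569 were tested. In untreated lines 51 were higher in KD cells (8.96%, beside 10.6% of all 11450 tested genes) and 44 lower (7.73%, beside 9.09%). At 8 h 95 were higher (16.7%, beside 19.3%) and 92 lower (16.2%, beside 16.5%), and at 24 h 73 were higher and 73 lower (12.8% each, beside 16.8% and 11.5%). The median log2 difference of the members was -0.01, 0.02 and -0.01, beside -0.01, 0.01 and 0.02 over all genes. After quantile normalization the split at 24 h was 56 higher and 101 lower. Changes of at least 2-fold among the genes called by limma numbered 0, 2 and 1, beside 67, 92 and 61 among all 11450 tested genes. An unadjusted p under 0.05 by limma was reached by 177, 251 and 224 of the 569 members, beside 3916, 5258 and 4809 of all 11450. Without either KD library of the untreated lines 23 or 24 genes were called there in place of 95, without any 1 library of 8 h 102 to 109 in place of 187, and without control library 1 or 2 of 24 h 39 or 58 in place of 146. With only the compared groups in the fit the counts were 23, 275 and 18, and those of TGF-β were 272 at 8 h and 404 at 24 h.

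Of the 19 tested machinery genes 4 fell and 1 rose in untreated lines, 12 fell at 8 h and 8 fell at 24 h with no other member called by limma, beside 9.09%, 16.5% and 11.5% of all genes that fell at these times. The median log2 differences were -0.13, -0.25 and -0.15. The gene that rose was Hdac1, a histone deacetylase with no lamin B1 peak (0.25 in untreated lines). Arid1a, the gene with the strongest peak, stood at 11.8 and 11.4 FPKM in untreated KD cells against 16.7 and 16.0 in control cells (-0.46 ± 0.09, adjusted p = 0.00953 by limma), at 13.1 and 11.3 against 19.6 and 18.3 at 8 h (-0.60), and at 10.7 and 12.6 against 14.3 and 15.7 at 24 h (-0.34). Adjusted p by limma was 0.00150 at 8 h and 0.0239 at 24 h. Its KD libraries did not reach the control libraries at any time. In parental cells TGF-β moved it by -0.09 at 8 h (adjusted p = 0.267 by limma) and -0.17 at 24 h (adjusted p = 0.0470 by limma). Max, the partner of Myc, had -0.57, -0.41 and -0.53, and Sfpq, a splicing and paraspeckle protein, -0.36, -0.38 and -0.24. Of the machinery genes called at 8 h, Thrap3, Mta1, Med18 and Ppp1r8 had no lamin B1 peak. The counts of falls rested on few libraries. They were 1 without either KD library and 2 without control library 2 in untreated lines, 7 without control or KD library 1 at 8 h, and 2 without either control library at 24 h, and 1 at 24 h with only the compared groups in the fit.

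Errfi1, a feedback inhibitor of the EGF receptor, fell in KD cells at each time. It stood at 13.1 and 13.7 FPKM against 19.8 and 21.3 in untreated lines (-0.58), at 7.76 and 7.31 against 18.2 and 17.4 at 8 h (-1.14 ± 0.11, adjusted p = 0.000200 by limma) and at 7.80 and 10.7 against 17.5 and 17.7 at 24 h (-0.88). Hnrnpr, an RNA-binding protein, fell by 0.57, 0.67 and 0.61 on the log2 scale, and Stmn1, which destabilizes microtubules, by 0.68 at 8 h and 0.61 at 24 h. These genes had lamin B1 peaks at 8 h of score 100.8 (Errfi1), 138.2 (Hnrnpr) and 102.9 (Stmn1) and none in untreated cells, while Errfi1 and Hnrnpr were already lower in untreated KD lines. Among the TGF-β regulators 4 rose and 1 fell in untreated lines, 4 rose and 3 fell at 8 h, and 4 rose and 2 fell at 24 h, of 16 tested and beside 10.6% and 9.09%, 19.3% and 16.5%, and 16.8% and 11.5% of all genes. Without control library 2 of the untreated lines 2 rose and 4 fell there, without KD library 1 3 rose alone, and without KD library 2 2 rose and 1 fell. At 8 h 3 rose and 1 fell without KD library 2, at 24 h 2 rose and 2 fell without control library 1, and with only the compared groups in the fit the counts were 2 and 1, 6 and 5, and 1 and 1. Fos and Klf4 rose at each time, Klf4 by 0.31, 0.27 and 0.31, and Errfi1 fell at each. Id3 had -0.32 at 8 h and -0.60 at 24 h. Of the 4 tested lineage factors Foxa1 fell at 8 h (-0.31) and 24 h (-0.49), Sox11 in untreated lines (-0.20) and at 24 h (-0.19), and Pax9 rose in untreated lines (0.58) and at 8 h (0.36), where quantile normalization left Foxa1 alone called and where Pax9 was not called without any 1 of the 4 libraries.

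Fos, an AP-1 subunit, had the largest rise among members in KD cells at 8 h, with 11.4 and 10.3 FPKM against 4.45 and 4.12 (log2 difference 1.16 ± 0.10, adjusted p = 0.000123 by limma). Its single peak was that of untreated cells (52.4). Nbl1, a secreted antagonist of BMP ligands, was at 21.2 and 20.7 FPKM against 12.5 and 10.1 in untreated lines (0.84), and Dhrs3, a retinaldehyde reductase, at 5.91 and 6.45 FPKM against 1.82 and 2.04 at 24 h (1.29). Smaller rises were those of Stxbp6 (0.47) and Txndc12 (0.46) in untreated lines, of Fam214b (0.78) and Tbc1d2, a regulator of Rab proteins (0.74), at 8 h, and of AU040320 (0.55) at 24 h. The groups do not overlap in any of these cases, because the rule that named the genes required it. Adhesion, cytoskeleton and matrix genes gave 3 rises and 4 falls of 17 in untreated lines, 2 and 1 at 8 h, and 1 rise alone at 24 h (1 rise and 2 falls after quantile normalization), beside the shares of all genes given above. In untreated lines 1 fall alone was called without either KD library, 1 rise and 3 falls without control library 1, 1 rise and 2 falls without control library 2, and 2 falls with only the compared groups in the fit. At 24 h 5 rises and 4 falls were called without KD library 1, and 1 rise and 2 falls without KD library 2.

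Genes of the same chromosomes with no lamin B1 peak were a comparison from inside these chromosomes. Of 501 tested in the shRNA table, 10.6% rose and 6.19% fell in untreated KD lines, 21.8% and 15.4% at 8 h, and 18.4% and 10.2% at 24 h. In parental cells 20.4% of 499 rose and 32.7% fell at 8 h, and 31.5% and 38.9% at 24 h. These shares stood within 6 percentage points of those of the lamin B1 + genes, and the difference was not tested.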

How the data were processed

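The submitters' processing notes name Bowtie, TopHat and Cufflinks and the build mm9, with no role or version. The deposited peak lists give 1 score per peak from the MACS caller run by the authors on each library. The deposited FPKM values are read fragments scaled by the authors to transcript length and library size. The FPKM tables have no header, and columns were taken in the order in which the labels name the libraries. Both tables were normalized separately and were not compared in level. Hi-C was not analysed here.

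Peaks were assigned to mm9 genes (GENCODE M1) with Python 3.11.15, pandas 2.3.3 and scipy 1.17.1, and overlaps needed 1 bp. "Near a TSS" means within 500 bp. Peaks were compared by counts and intervals without a test, since each time point had 1 library. Symbols of 21807 of 23295 rows of the parental table and 21987 of 24247 of the shRNA table matched an annotated gene. RNA was tested with limma 3.58.1 (R 4.3.3) on log2(FPKM + 1), with all libraries of a table in 1 fit, for genes of at least 1 FPKM in at least 2 libraries, at a Benjamini-Hochberg adjusted p of 0.05. Fold changes on this scale understate changes of low genes. The fit was checked on simulated data.

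Named genes were the 3 highest scoring promoter peaks per chromosome and list, 4 lists of 20 genes and the gene clusters, and per RNA comparison the 3 largest rises and falls among called lamin B1 + genes whose groups did not overlap and whose higher mean reached 5 FPKM. The members and lists were chosen with earlier results of these data known. Alternatives were other gene sets, score limits, overlaps, constants, filters, scalings and left-out libraries. A few genes that this rule names are not reported here.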

Additional observations from a re-analysis of the deposited data

Results flagged for a closer look

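Fos on chromosome 12 moved in opposite directions at the 2 times of TGF-β in parental cells. It was at 2.49 and 2.87 FPKM in untreated cells, rose to 5.71 and 5.02 after 8 h, and stood at 0.446 and 0.352 after 24 h. The log2 difference from untreated cells was 0.79 at 8 h (adjusted p = 0.000374 by limma) and -1.39 at 24 h (adjusted p = 1.04e-05 by limma). Both libraries of 8 h lay above, and both of 24 h below, the untreated ones, and this pattern is why Fos was flagged. The difference between the times was not tested, and both comparisons share the untreated libraries.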

How the results depend on the processing

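The peak ratio of chromosomes 4 and 12 to other autosomes, given for 0, 8 and 24 h, stayed below 1 in every alternative run. It was 0.351, 0.583 and 0.715 over protein-coding genes, 0.337, 0.559 and 0.686 over genes of at least 1 FPKM, and 0.184, 0.371 and 0.434 with peaks at or above their own median score. Equal list lengths gave 0.354 at 8 h and 0.454 at 24 h, and counting per Mb gave 0.492 at 8 h. The share near a TSS was 84.3%, 76.9% and 79.5% within 2500 bp, and 82.5%, 80.3% and 77.0% with the higher scoring peaks. Regions held at every time were 7.54% with the higher scoring peaks and 13.3% with equal lists. ATAC overlap was 45.2% at 0 h and 21.4% at 8 h when 50% of the peak had to be covered, 34.9%, 16.4% and 57.5% with the higher scoring ATAC peaks, and 43.4% at 24 h with equal ATAC lists. The cause of these shifts was not tested, beyond the shorter lists that the limits leave.

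Leaving out a library gave 230 to 295 member calls at 8 h of TGF-β, 321 to 349 at 24 h, and, for KD against control, 23 to 111 in untreated lines, 102 to 109 at 8 h and 39 to 213 at 24 h. With only the groups compared in the fit KD gave 23 calls in untreated lines and 18 at 24 h. That fit and the left-out libraries leave fewer samples. Of 730 named-gene values under other settings 673 stayed called, 57 lost the call and 0 reversed, and of 648 with a library left out 500 stayed called, 148 lost it and 0 reversed.

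With the replicate number as a block in the shRNA lines the calls were 95, 178 and 136 in the order of time, and 72 of 74 named genes kept their call. Deviations of control and KD library 1 had correlations of -0.135, -0.113 and 0.368 in the order of time. The deviations at 24 h thus went partly together. The check was made within each time alone, and whether same-numbered libraries share a batch was not tested. No paired analysis was possible because no replicate number is given for the parental columns. With 1 peak list per time, counting error is the only error known, and depth is unknown.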
